A study of Mus musculus with 8 samples.

Results

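The genes described are 39 enzymes and transporters of glucose use. They comprise 25 genes of glucose transport and glycolysis, lactate dehydrogenases included, and 14 genes of the tricarboxylic acid (TCA) cycle. They were chosen by name as members of these pathways, and all 39 were found among the 15358 genes of the count table and passed the low-count filter that left 14887 genes for testing. Whole ventricles of mouse hearts were collected at embryonic day 14.5 for RNA-seq. Control embryos carried floxed Lem2 alleles (Lem2 f/f), and conditional knockout (cKO) embryos carried the same floxed alleles and a Cre transgene (XMLC2V; Lem2 f/f). Lem2 (gene symbol Lemd2) encodes a protein of the inner nuclear membrane. The labels give 4 samples per group; 3 control and 4 cKO libraries were compared, and control replicate 4 was not analysed here. Controls are described as littermates without any litter being named, and p-values therefore reflect only how these samples vary. The labels do not give the cells in which the transgene is active, and the tissue is the whole ventricle and not sorted cells.

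Glycolysis splits glucose into pyruvate in the cytosol, and lactate dehydrogenase converts pyruvate to lactate and back. The TCA cycle oxidises acetyl-CoA in the mitochondrial matrix and feeds electrons to the respiratory chain. The fetal heart is known for its reliance on glucose and lactate, and several steps have a muscle isozyme beside one that is more widely expressed. In whole ventricle, fewer cells of a type and less RNA per cell cannot be told apart.

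The libraries held 28921922 to 39351262 counts, of which the 39 genes took 1.78% to 1.96%. Lemd2 stood at 36.8, 34.4 and 36.4 CPM in controls 1 to 3 and 18.5, 17.1, 16.3 and 13.7 CPM in cKO 1 to 4, so every cKO library lay below every control. Its log2 fold change was -1.13 (SE 0.0857, edgeR adjusted p = 0.00135). Features other than the group also set libraries apart. The 2 libraries cKO 3 and cKO 4 expressed Xist, the RNA of the inactive X chromosome, at 1320 and 1100 CPM, against at most 0.504 CPM in the other 5. Sample titles carry a code, F191 for control 3 and cKO 4 and F169 for the other 5 libraries, which the labels do not explain. All 10 cardiomyocyte markers were detected in every library. Their summed level was 42132 to 44827 CPM in controls and 38101 to 44581 CPM in cKO, and the lowest library was cKO 1.

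Levels between genes are compared only as CPM (counts scaled to library size) per kilobase of exon. In controls, aldolase Aldoa stood highest of the 39 at 1002 CPM per kb, followed by lactate dehydrogenase Ldha at 813, mitochondrial isocitrate dehydrogenase Idh2 at 798 and pyruvate kinase Pkm at 702 CPM per kb. The 4 bifunctional enzymes that set fructose 2,6-bisphosphate were among the lowest, from 1.105 CPM per kb for Pfkfb4 to 7.66 for Pfkfb3. Among glucose transporters, Slc2a1 (GLUT1) stood at 85.95 CPM per kb and the insulin-responsive Slc2a4 (GLUT4) at 14.3. Hk1 stood at 109.7 and Hk2 at 27.5 CPM per kb. The widely expressed form stood above the muscle form for the hexokinases and the mutases. For the enolases the order depended on how shared reads were assigned: Eno3 stood at 174 CPM per kb and Eno1 at 52.7, but Eno1 summed with its near-identical copy Eno1b came to 503 CPM per kb of Eno1 exon. The phosphofructokinases lay close together, with Pfkl at 93.7, Pfkm at 75.5 and Pfkp at 66.997 CPM per kb.

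No gene of the 39 passed edgeR's quasi-likelihood test at an adjusted p of 0.05 in either direction; of all genes tested, 0.766% were called higher in cKO and 0.322% lower. At an unadjusted p under 0.05, 2 genes were higher in cKO (Pgam1 and Eno1) and 6 lower (Slc2a4, Pfkm, Ldhb, Idh2, Idh3g and Suclg2), which is 5.13% and 15.4% of the 39 against a background of 9.4% and 8.5% of all genes. In 2 genes every cKO library was above every control and in 7 below, which is 5.13% and 17.9% of the 39 against 8.67% and 8.28% of all genes. DESeq2 called 1 gene higher (Pgam1) and 4 lower (Ldhb, Idh2, Pfkm and Slc2a4). Those are 2.56% and 10.3% of the 39, beside 2.6% and 1.63% of all genes tested.

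The differences were small and mostly of one sign. Log2 fold changes of cKO over control ran from -0.27 (Slc2a4) to 0.25 (Eno1), with a median of -0.03 against -0.0060 over all genes tested. With 1 library left out, that median ran from -0.090 (without control 2) to -0.0022 (without cKO 1), and was -0.0087 without control 3. The log2 fold change was below 0 in 30 of the 39 genes (76.9%), against 52.1% of all genes. Of the 25 genes of glucose transport and glycolysis it was below 0 in 22, with a median of -0.08, and of the 14 TCA cycle genes in 8, with a median of -0.01. The count of 30 depended on single libraries: it was 20 without cKO 1 and 23 without control 3. Without control 3 the count for glucose transport and glycolysis was 16 of 25. The 95% interval of the fold change lay within a 1.5-fold change either way in all 39 genes, with bounds from -0.52 to 0.47 on the log2 scale.

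**Figure D1:**
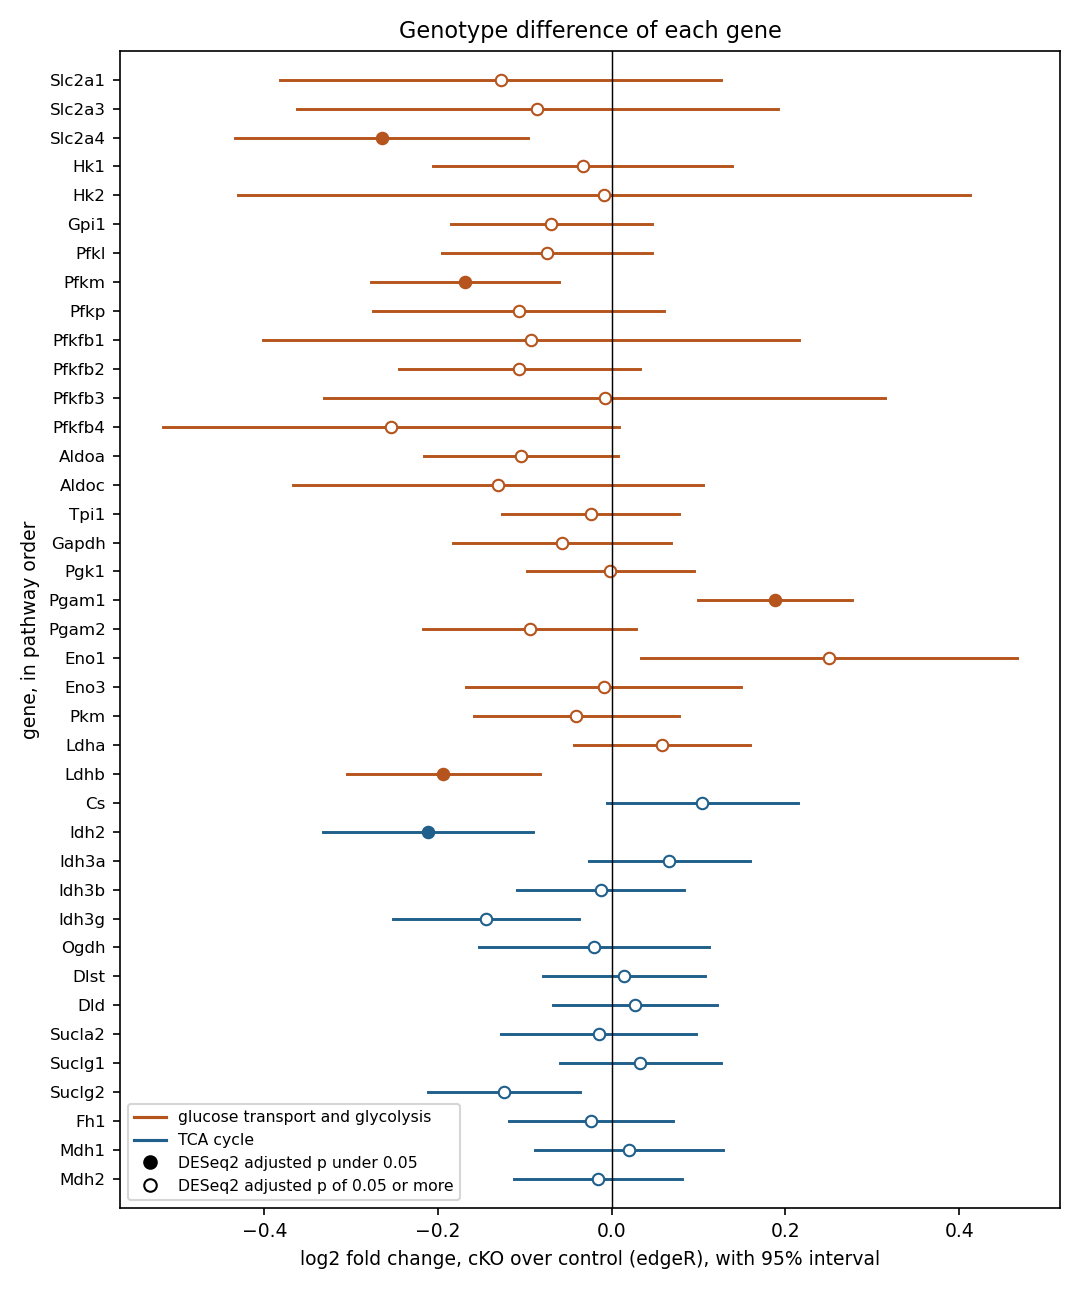
Log2 fold change of cKO over control for each of the 39 genes in pathway order, with its 95% interval from edgeR; colour gives the branch and filled points passed DESeq2. The points lie between -0.27 and 0.25, 30 of them left of 0, and 5 are filled.

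Of the 3 glucose transporters, Slc2a4, which in muscle moves to the cell surface under insulin, differed most. Slc2a4 (chr11:69942286-69948191 on mm10) stood at 41.3, 38.6 and 40.3 CPM in controls 1 to 3 and 32.7, 37.97, 29.3 and 33.2 CPM in cKO 1 to 4. Every cKO library was below every control, and cKO 3 was the lowest. Its means were 40.1 ± 1.37 CPM in controls (SD, n = 3) and 33.3 ± 3.58 CPM in cKO (SD, n = 4), a log2 fold change of -0.27 (SE 0.0755, edgeR adjusted p = 0.114, DESeq2 adjusted p = 0.0381). The transporter Slc2a1 had 256, 263 and 322 CPM in controls 1 to 3 and 238, 260.4, 220.3 and 307 CPM in cKO 1 to 4. Its groups overlapped, and the highest library of each group was the one coded F191; the log2 fold change was -0.13 (SE 0.113). Slc2a3 (GLUT3), the third transporter, had a log2 fold change of -0.086 (SE 0.124).

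Hexokinases trap glucose in the cell as glucose 6-phosphate. Hk1 had 538, 487 and 571 CPM in controls 1 to 3 and 451, 547, 526 and 555 CPM in cKO 1 to 4. Hk2, the isozyme typical of striated muscle, had 139, 127 and 196 CPM in controls 1 to 3 and 128, 158, 123 and 203 CPM in cKO 1 to 4. The groups overlapped for both genes. For Hk2 the log2 fold change was -0.0088 with a 95% interval of -0.43 to 0.41, and its standard error was the largest of the 39. Gpi1, which turns glucose 6-phosphate into fructose 6-phosphate, had a log2 fold change of -0.070 (SE 0.0517).

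Phosphofructokinase commits sugar to glycolysis, and Pfkm is its muscle subunit. Pfkm (chr15:98092589-98132448) stood at 224, 213 and 242 CPM in controls 1 to 3 and 193, 208, 201 and 204 CPM in cKO 1 to 4. The groups did not overlap, though control 2 and cKO 2 lay close. Its means were 227 ± 14.6 CPM in controls (SD, n = 3) and 201 ± 6.61 CPM in cKO (SD, n = 4), with a log2 fold change of -0.17 (SE 0.0482, edgeR adjusted p = 0.115, DESeq2 adjusted p = 0.0306). Pfkm overlaps Senp1 on the other strand, with the use of strand in counting not given in the sources used here. The liver-type subunit Pfkl had 349.9, 342 and 356 CPM in controls 1 to 3 and 311, 349, 312 and 354 CPM in cKO 1 to 4, with overlapping groups and a log2 fold change of -0.075. The platelet-type subunit Pfkp had a log2 fold change of -0.11 (SE 0.0747).

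The bifunctional enzymes Pfkfb1 to Pfkfb4 make and remove fructose 2,6-bisphosphate, an activator of phosphofructokinase. All 4 log2 fold changes were below 0, from -0.25 (SE 0.117, edgeR adjusted p = 0.294) for Pfkfb4 to -0.0082 for Pfkfb3, and none passed either test. Pfkfb4 had 3.802, 3.99 and 3.76 CPM in controls 1 to 3 and 3.596, 2.97, 2.94 and 3.42 CPM in cKO 1 to 4, and these low levels did not overlap between groups.

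Aldolase and triose phosphate isomerase split fructose 1,6-bisphosphate and bring its fragments into one path. Aldoa had 1873, 1747 and 1860.5 CPM in controls 1 to 3 and 1628, 1743, 1610.5 and 1814 CPM in cKO 1 to 4, a log2 fold change of -0.10 (SE 0.04997, edgeR adjusted p = 0.311). The brain-type aldolase Aldoc had 19.1, 16.4 and 16.3 CPM in controls 1 to 3 and 16.6, 16.5, 12.7 and 17.2 CPM in cKO 1 to 4, with its lowest value in cKO 3. Groups overlapped for both, and Tpi1, the isomerase, had a log2 fold change of -0.024 (SE 0.0455).

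Phosphoglycerate mutase, which moves the phosphate of 3-phosphoglycerate, was the step with the smallest p of the 39 genes. Pgam1 (chr19:41911871-41918666), the widely expressed form, stood at 657, 658 and 672 CPM in controls 1 to 3 and 720.1, 776, 741 and 780.5 CPM in cKO 1 to 4. The 3 controls lay within a narrow range and all 4 cKO libraries were above it. Its means were 662 ± 8.78 CPM in controls (SD, n = 3) and 754 ± 28.9 CPM in cKO (SD, n = 4), with a log2 fold change of 0.19 (SE 0.0395, edgeR adjusted p = 0.06097, DESeq2 adjusted p = 0.000112). Without cKO 1, edgeR called it higher (log2 fold change 0.21, adjusted p = 0.0442), where 0.674% of genes were called higher. The muscle form Pgam2 had 241, 219 and 240.5 CPM in controls 1 to 3 and 199, 224, 225 and 226 CPM in cKO 1 to 4. The groups of Pgam2 overlapped, with cKO 1 lowest, and the log2 fold change was -0.095 (SE 0.0548).

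Enolase makes phosphoenolpyruvate. Eno1 (chr4:150237197-150248874), the widely expressed enolase, had 134, 134 and 135 CPM in controls 1 to 3 and 151, 148, 143 and 197 CPM in cKO 1 to 4. All cKO libraries were above the controls, and cKO 4 stood apart from the other 3. Its log2 fold change was 0.25 (SE 0.0966, edgeR adjusted p = 0.219, DESeq2 adjusted p = 0.106), and 0.14 without cKO 4. The muscle enolase Eno3 had 285, 273 and 259.5 CPM in controls 1 to 3 and 267, 309, 247 and 260.1 CPM in cKO 1 to 4, with overlapping groups.

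Eno1 shared 49.5% of its 50-base stretches with other annotated genes, and its copy Eno1b held most of the counts assigned to the pair. Eno1 made up 10.02% to 12.9% of the Eno1 and Eno1b counts. Summed over both, the level was 1261, 1234 and 1349 CPM in controls and 1379, 1477, 1218 and 1523 CPM in cKO. The groups of the sum overlapped, with a log2 difference of 0.12 (two-sided exact permutation p = 0.257). The difference of Eno1 alone is therefore uncertain. Pgam1 shared 41.5% of its stretches with other genes, Pgk1 68%, Gapdh 58.4% and Ldhb 21%, and their levels carry the same limit. So do those of Pkm (23.7%), Pfkfb2 (22.9%), Suclg2 (19.1%), Gpi1 (18.6%) and Ldha (10.4%). Of the 39 genes, 23 shared none.

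Of the remaining lower glycolytic genes, Gapdh, the glyceraldehyde 3-phosphate dehydrogenase, had a log2 fold change of -0.057 (SE 0.0561), and Pgk1, the phosphoglycerate kinase, -0.0017 (SE 0.0428). Pkm, pyruvate kinase, had -0.041 (SE 0.0525). The 95% intervals of all 3 included 0.

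Lactate dehydrogenase joins subunits A and B, which Ldha and Ldhb encode, and the adult heart is rich in B. Ldhb (chr6:142490249-142507958) stood at 535, 476 and 541 CPM in controls 1 to 3 and 436, 465, 455 and 454 CPM in cKO 1 to 4. Every cKO library was below every control, and control 2 was the nearest. Its means were 517 ± 35.9 CPM in controls (SD, n = 3) and 452 ± 12.1 CPM in cKO (SD, n = 4), with a log2 fold change of -0.19 (SE 0.0496, edgeR adjusted p = 0.0931, DESeq2 adjusted p = 0.00766). Ldha had 1561, 1497 and 1566 CPM in controls 1 to 3 and 1518, 1689, 1557 and 1653 CPM in cKO 1 to 4. The groups of Ldha overlapped, with a log2 fold change of 0.058 (SE 0.0451).

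**Figure D2:**
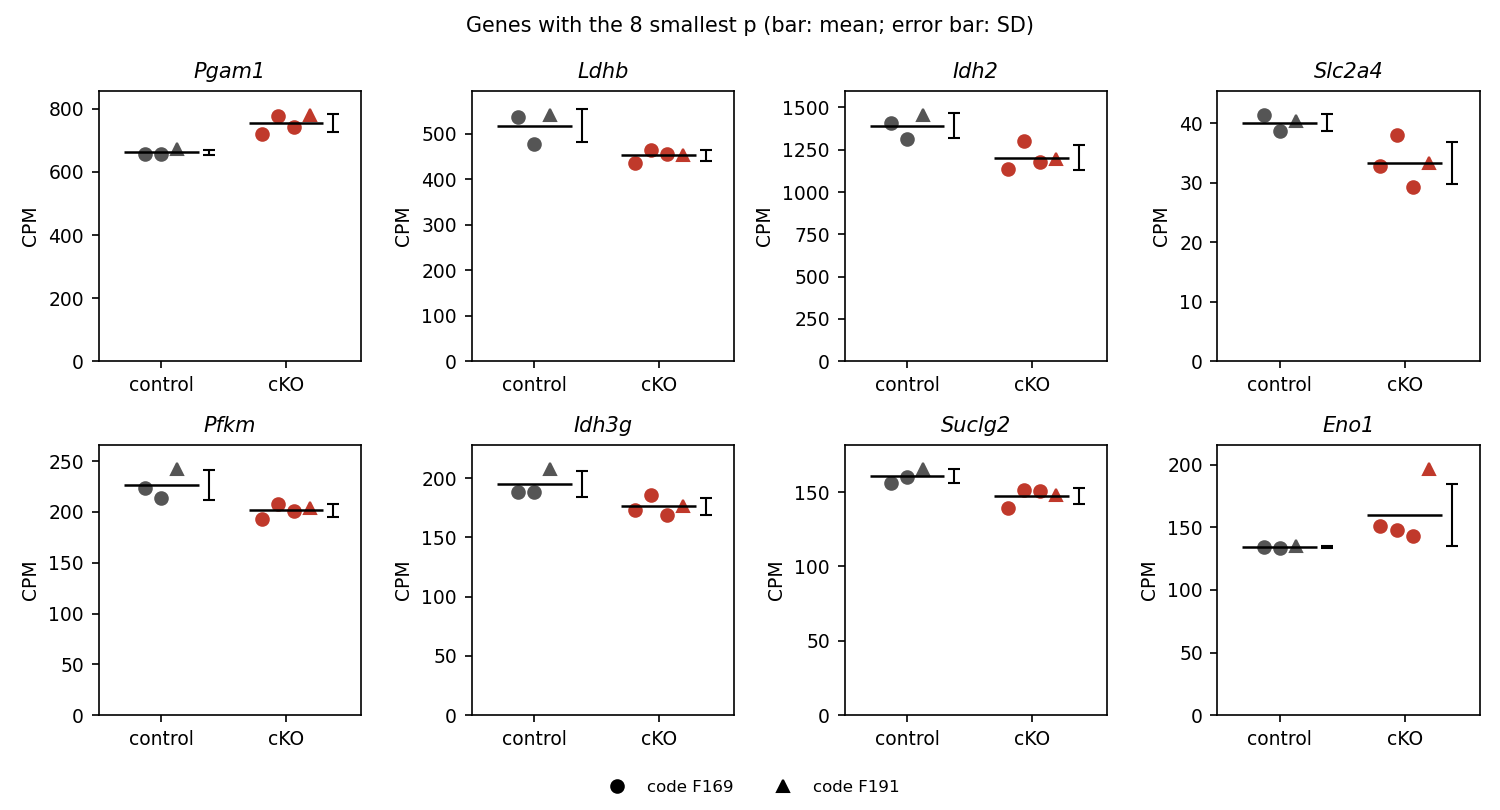
CPM in each library for the 8 genes with the smallest edgeR p, controls in grey and cKO in red, with marker shape giving the code in the title; bars are means and error bars SD, and the axes start at 0. The cKO points of Pgam1 and Eno1 lie above the controls and those of the other 6 genes below.

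In the TCA cycle, Idh2, the NADP-dependent isocitrate dehydrogenase of mitochondria, differed most. Idh2 (chr7:80094847-80115351) stood at 1409.6, 1315 and 1455 CPM in controls 1 to 3 and 1134, 1304, 1180.3 and 1195 CPM in cKO 1 to 4. The groups did not overlap, with control 2 and cKO 2 closest and cKO 1 lowest. Its means were 1393 ± 71.1 CPM in controls (SD, n = 3) and 1203 ± 71.97 CPM in cKO (SD, n = 4), with a log2 fold change of -0.21 (SE 0.0539, edgeR adjusted p = 0.0925, DESeq2 adjusted p = 0.00575).

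The NAD-dependent isocitrate dehydrogenase has subunits encoded by Idh3a, Idh3b and the X-linked Idh3g. Idh3g (chrX:73778963-73786898) had 188, 189 and 208 CPM in controls 1 to 3 and 173, 186, 169.1 and 176 CPM in cKO 1 to 4, a log2 fold change of -0.14 (SE 0.0477, edgeR adjusted p = 0.162). All cKO libraries were below the controls, those with and those without Xist. Idh3a and Idh3b had log2 fold changes of 0.066 (SE 0.0413) and -0.013 (SE 0.0429), and their 95% intervals included 0.

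Succinyl-CoA ligase pairs Suclg1 with Suclg2, for GTP, or with Sucla2, for ATP. Suclg2 (chr6:95473009-95718847) had 156, 160.2 and 165 CPM in controls 1 to 3 and 139.5, 151, 150.5 and 148 CPM in cKO 1 to 4, with no overlap and a log2 fold change of -0.12 (SE 0.0389, edgeR adjusted p = 0.147, DESeq2 adjusted p = 0.0855). Sucla2 had 209.7, 199 and 208 CPM in controls 1 to 3 and 188, 209.7, 216 and 199.7 CPM in cKO 1 to 4, with overlapping groups and a log2 fold change of -0.015 (SE 0.0501). Suclg1 was at 0.033 (SE 0.0413).

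Citrate synthase Cs, which opens the cycle, had 818, 769.6 and 782 CPM in controls 1 to 3 and 783, 875, 848 and 889 CPM in cKO 1 to 4, a log2 fold change of 0.10 (SE 0.04903, edgeR adjusted p = 0.305), and its groups overlapped. The 2-oxoglutarate dehydrogenase complex, encoded by Ogdh, Dlst and Dld, had log2 fold changes from -0.020 to 0.027. Fumarase Fh1 was at -0.024, cytosolic malate dehydrogenase Mdh1 at 0.020 and the mitochondrial Mdh2 at -0.016 (SE 0.0421, 0.0482 and 0.0431). Standard errors of the 14 TCA cycle genes were 0.0389 to 0.0589, against 0.0395 to 0.188 for the 25 glycolytic genes.

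Ratios of isozymes within a library do not depend on library scaling, and 8 pairs were compared. The log2 ratio of Pgam1 to Pgam2 was 1.51 ± 0.0734 in controls (SD, n = 3) and 1.79 ± 0.0541 in cKO (SD, n = 4). That of Ldha to Ldhb was 1.58 ± 0.0657 in controls and 1.83 ± 0.0452 in cKO. The ratio of Suclg2 to Sucla2 was -0.35 ± 0.0615 in controls and -0.46 ± 0.0444 in cKO. These 3 ratios did not overlap between groups, with log2 differences of 0.28, 0.25 and -0.11 and a two-sided exact permutation p of 0.0286 each, the smallest that 35 arrangements allow. Adjusted over the 8 pairs by Benjamini-Hochberg, each p was 0.0762, so none passed 0.05. With 0.0286 as the smallest p, 3 separated pairs of 8 cannot pass 0.05 after this adjustment, however large their differences. The adjusted test therefore cannot decide whether these 3 ratios differ. Relative to Pgam2, Pgam1 was higher in every cKO library than in any control, as was Ldha relative to Ldhb, while Suclg2 relative to Sucla2 was lower. The ratios for the transporters, hexokinases, phosphofructokinases, aldolases and enolases overlapped, with log2 differences of 0.14, -0.02, 0.09, -0.04 and 0.25 and unadjusted exact permutation p of 0.371, 0.971, 0.143, 0.857 and 0.171. The pairs were chosen with earlier results of these data known.

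**Figure D3:**
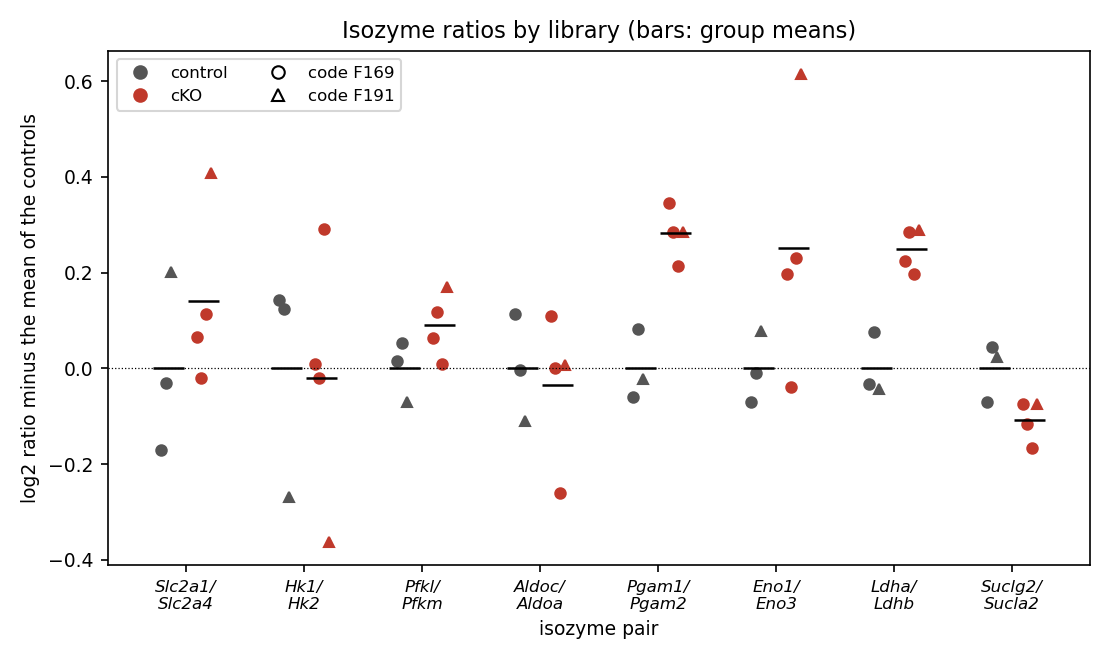
Log2 ratio of the 2 genes of each isozyme pair in each library, minus the mean of the controls, with controls in grey and cKO in red, marker shape for the code and bars for group means. The cKO points of Pgam1/Pgam2 and Ldha/Ldhb lie above all controls and those of Suclg2/Sucla2 below them.

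The 39 genes also varied between libraries within a group. Relative to the control mean, the median log2 difference over the 39 was 0.02, -0.04 and 0.03 in controls 1 to 3 and -0.11, 0.02, -0.07 and 0.04 in cKO 1 to 4. cKO 1 was below the control mean in 36 of 39 genes and control 2 in 36 of 39, whereas cKO 4 was below it in 14. The cardiomyocyte markers were also low in cKO 1, which had their lowest summed level of the 7 libraries and 9 of 10 markers below the control mean. They followed the 39 genes only in part. Their median log2 difference was -0.21 in cKO 1, -0.049 in control 2 and -0.021 in cKO 3, where 6 of 10 were below the control mean. Their part in the result was not tested.

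**Figure D4:**
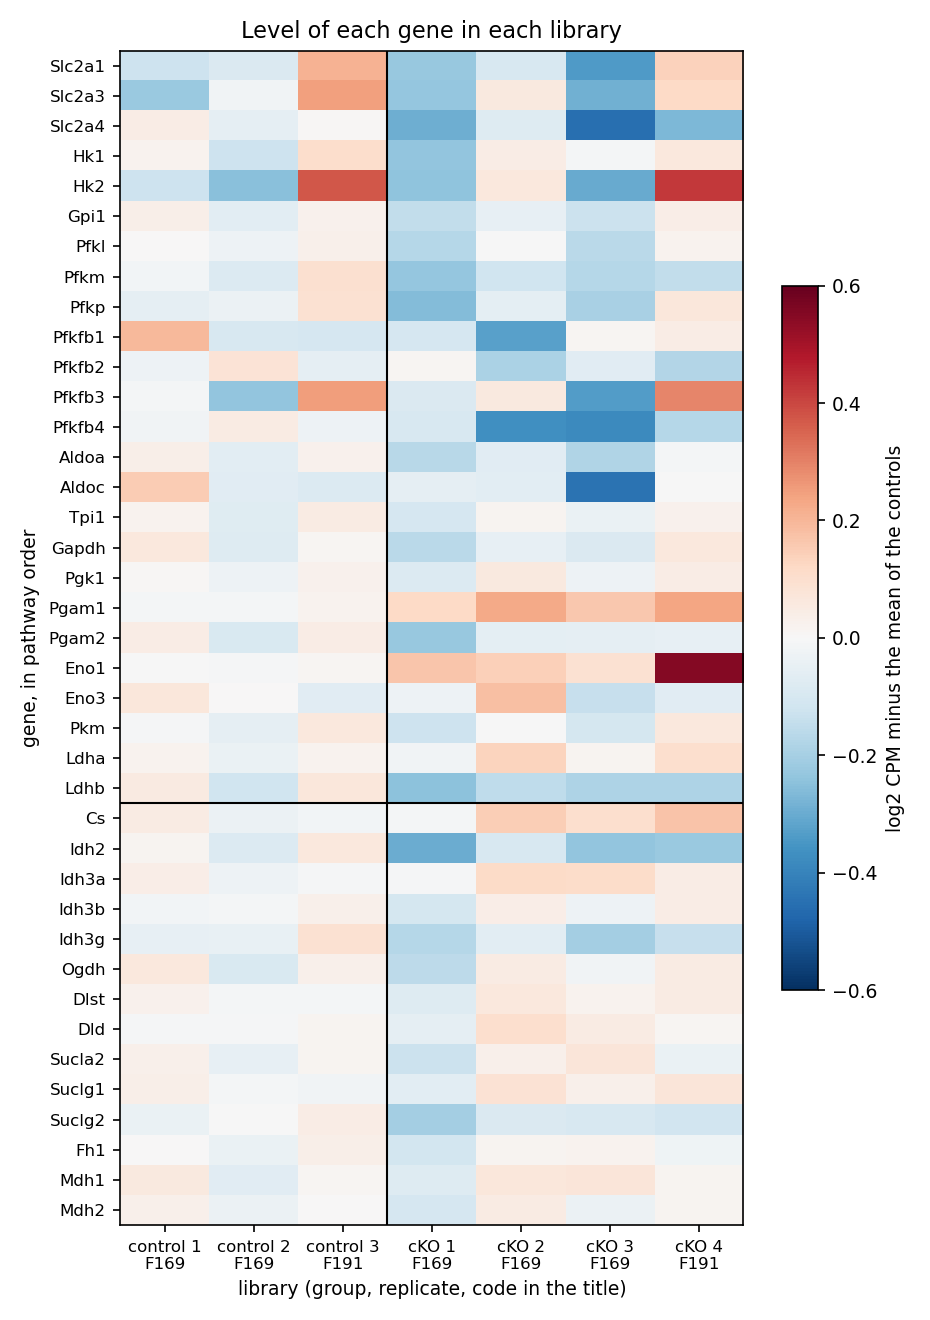
Log2 CPM of each of the 39 genes (rows, in pathway order) in each library (columns) minus the mean of the 3 controls, red for higher and blue for lower; lines part the groups and the 2 branches. Hk2 is red in control 3 and cKO 4, Pgam1 and Eno1 are red in the 4 cKO columns, and cKO 1 is blue in most rows.

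The code in the titles went with part of this variation. The comparison of the 2 libraries coded F191 (control 3 and cKO 4) with the 5 coded F169, with genotype as a term, was added after the data were seen. It rests on 1 library of each genotype. Hk2 had 196 and 203 CPM in the F191 libraries and 123 to 158 CPM in the others, with no overlap, a log2 difference of 0.57 (SE 0.0865, edgeR adjusted p = 0.0654). Slc2a1 had 322 and 307 CPM against 220.3 to 263 CPM, a log2 difference of 0.34 (SE 0.0595, edgeR adjusted p = 0.1002). Pfkfb3, an isozyme with high kinase activity, had 49.8 and 51.4 CPM against 33.2 to 43.6 CPM, a difference of 0.39 (adjusted p = 0.218). Hk2, Slc2a1 and Pfkfb3 are known targets of hypoxia-inducible factor. Some other known targets among the 39 differed less by code, with Aldoa at 0.086, Pgk1 at 0.049 and Pfkfb4 at 0.033. Differences between these were also seen, with Slc2a3 at 0.31 (SE 0.0918, edgeR adjusted p = 0.328) and Pfkp at 0.19 (SE 0.0557, edgeR adjusted p = 0.32). Over all 39, the log2 difference was above 0 in 35, against 49.8% of all genes. Of the 25 glycolytic genes 7 had an unadjusted p under 0.05 with the F191 libraries higher, and of the 14 TCA cycle genes 0, beside 5.39% of all genes tested; 0 of the 39 had such a p with F191 lower, against 4.27%. edgeR called 0 of the 39 (0.0806% of all genes were called higher and 0.047% lower) and DESeq2 3 (Hk2, Slc2a1 and Pfkfb3), all higher, where 0.524% of all genes were called higher and 0.208% lower. Without cKO 2 edgeR called 2 (Hk2 and Slc2a1), where 0.182% of all genes were called higher. Without control 3 it called 1, Eno1, beside 0.0333% of all genes; there F191 was cKO 4 alone, whose spread is assumed to be that of the other libraries. The log2 difference of Eno1 by code was 0.015 without cKO 4.

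Among 21 targets of hypoxia-inducible factor outside glycolysis, 19 had a log2 difference above 0 by code, against 49.8% of all genes. At an unadjusted p under 0.05, 14 of the 21 were higher and 0 lower, beside 5.39% and 4.27% of all genes. The median difference of the 21 was 0.19 against -0.00028 over all genes. Kdm3a, a histone demethylase, was the 1 called, at 0.26 (edgeR adjusted p = 0.0489), beside 0.0806% of all genes called higher. Ndrg1 differed by 0.64 (edgeR adjusted p = 0.0833). In the genotype comparison, with its 3 controls holding 1 F191 library and its 4 cKO 1, edgeR called 0 of the 21. Of all genes, 0.766% were called higher by genotype and 0.322% lower. What the code stands for is not known, and its libraries cannot be told apart from the properties of those 2 samples. Cardiomyocyte markers summed to 44206 to 44789 CPM in F191 libraries and 38101 to 44827 CPM in F169 libraries, and red cell markers to 2710.1 to 3763 CPM and 1995 to 3719 CPM. None of the markers was at 0 counts, and their part in the result was not tested.

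**Figure D5:**
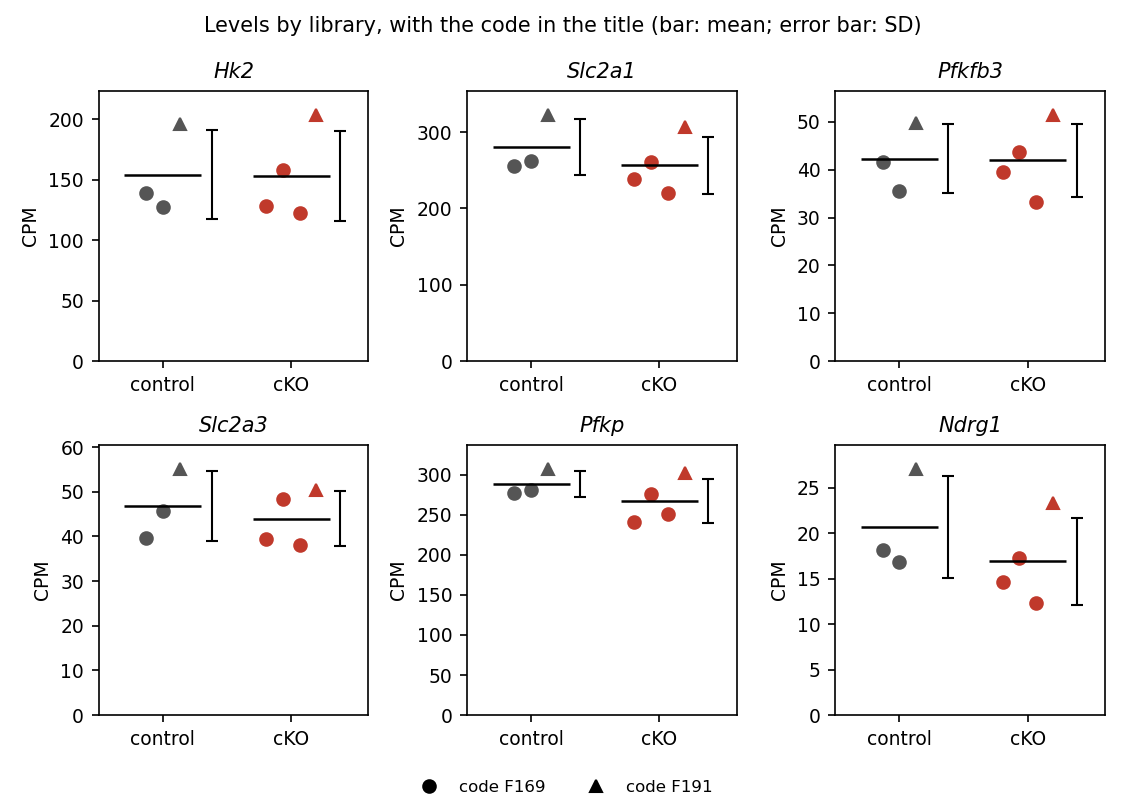
CPM in each library for 5 genes of glucose use and for Ndrg1, a target of hypoxia-inducible factor outside glycolysis, with F169 libraries as circles and F191 libraries as triangles; bars are means, error bars SD, and axes start at 0. In each panel the triangle is the highest point of its group.

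Promoters of 36 of the 39 genes were in the RefSeq table (GRCm38.p6, 250 bases before to 50 after each start). Those of Slc2a1 and Hk2, which share a library pattern, and of Pgam1 and Ldhb, which differed in opposite directions by genotype, are shown 5′ to 3′ on the gene's strand. Capitals mark the hypoxia response element core, ACGTG or GCGTG on either strand (CACGT or CACGC when read on the other).
Slc2a1, chr4:119108495-119108794, plus strand: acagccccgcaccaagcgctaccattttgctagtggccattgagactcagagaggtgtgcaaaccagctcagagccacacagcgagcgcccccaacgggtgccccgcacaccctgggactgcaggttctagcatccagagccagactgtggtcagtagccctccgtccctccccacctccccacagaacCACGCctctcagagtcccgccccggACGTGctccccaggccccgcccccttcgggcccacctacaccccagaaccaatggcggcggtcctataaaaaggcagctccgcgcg
Hk2, chr6:82774405-82774704, minus strand: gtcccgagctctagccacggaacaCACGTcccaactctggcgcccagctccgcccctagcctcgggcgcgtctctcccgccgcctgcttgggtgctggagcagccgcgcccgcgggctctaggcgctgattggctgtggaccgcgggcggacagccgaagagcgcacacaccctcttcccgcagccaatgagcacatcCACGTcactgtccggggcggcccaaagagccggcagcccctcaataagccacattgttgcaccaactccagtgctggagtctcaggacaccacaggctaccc
Pgam1, chr19:41911621-41911920, plus strand: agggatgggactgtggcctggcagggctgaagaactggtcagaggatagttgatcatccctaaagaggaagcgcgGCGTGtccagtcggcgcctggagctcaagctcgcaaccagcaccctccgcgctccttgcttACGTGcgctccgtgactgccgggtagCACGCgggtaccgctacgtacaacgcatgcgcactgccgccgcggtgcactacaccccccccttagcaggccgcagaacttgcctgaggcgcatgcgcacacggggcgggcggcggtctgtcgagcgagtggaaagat
Ldhb, chr6:142507908-142508207, minus strand: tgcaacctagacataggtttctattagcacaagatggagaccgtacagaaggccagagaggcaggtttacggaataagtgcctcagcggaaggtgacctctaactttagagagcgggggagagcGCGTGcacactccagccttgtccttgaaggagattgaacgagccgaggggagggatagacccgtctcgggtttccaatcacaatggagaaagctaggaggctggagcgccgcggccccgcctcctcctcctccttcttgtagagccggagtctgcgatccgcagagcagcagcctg
All 4 windows hold the core. So did 23 of the 36 (63.9%), against 61.9% of the 11494 promoters matched to tested genes. The E-box CACGTG, which contains the core, was in 2 of 36 (5.56%) against 10.1%, and the estrogen-related receptor site AAGGTCA in 2 of 36 (5.56%) against 3.1%. A match is a description of letters and not of binding.

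Genes beside the pathway were counted from lists. In pyruvate entry to mitochondria, of 17 genes edgeR called 0 higher and 1 lower in cKO, beside 0.766% and 0.322% of all genes. DESeq2 called 0 higher and 2 lower (Pdk2 and Pdk1), beside 2.6% and 1.63% of all genes. Pdk2, a kinase that inhibits pyruvate dehydrogenase, had 94.7, 86.5 and 97.2 CPM in controls 1 to 3 and 72.3, 71.8, 68.2 and 68.3 CPM in cKO 1 to 4, so groups did not overlap, with a log2 fold change of -0.40 (SE 0.0461, edgeR adjusted p = 0.00653). Its edgeR adjusted p was 0.0638 in F169 libraries alone and 0.0903 without the Xist-expressing libraries. Pdk1 was at -0.20 (edgeR adjusted p = 0.0803, DESeq2 adjusted p = 0.00284) and Pdk4 at -0.12.

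In glycogen metabolism, of 23 genes 2 were called lower and 0 higher, beside 0.322% and 0.766% of all genes. Of the 23 log2 fold changes 21 were below 0, against 52.1% of all genes, with a median of -0.08. The shift was uneven between libraries. Relative to the control mean, the median log2 difference over the 23 was -0.16, -0.0070, -0.13 and -0.067 in cKO 1 to 4. In controls 1 to 3 it was -0.011, -0.051 and 0.077. Ppp1r3d, a glycogen-targeting subunit of a phosphatase, had 44.2, 46.2 and 51.5 CPM in controls 1 to 3 and 34.4, 35.5, 37.7 and 37.04 CPM in cKO 1 to 4, a log2 fold change of -0.39 (SE 0.0574, edgeR adjusted p = 0.0215). Pygl, glycogen phosphorylase of the liver type, had 53.2, 53.3 and 56.7 CPM in controls 1 to 3 and 43.2, 46.7, 41.3 and 46.6 CPM in cKO 1 to 4, a log2 fold change of -0.29 (SE 0.0518, edgeR adjusted p = 0.0372). Every cKO library was below every control for both. Of 14 alternative settings, Ppp1r3d was called in 8 and Pygl in 5. With 1 library left out, the edgeR adjusted p of Ppp1r3d ran from 0.0377 to 0.08499, past 0.05 without control 2, control 3 or cKO 2, and that of Pygl from 0.0498 to 0.142, called only without cKO 4. Ugp2, the third gene by p, which makes UDP-glucose for glycogen, was at 0.11 (edgeR adjusted p = 0.175).

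In the other lists of metabolic genes, regulators and hypoxia-inducible factor targets, edgeR called 0 genes by genotype, and DESeq2 called only Txnip. Of all genes, edgeR called 0.766% higher and 0.322% lower, and DESeq2 2.6% and 1.63%. The shares of all genes at an unadjusted p under 0.05, against which the counts that follow are to be read, were 9.4% higher and 8.5% lower. Of 16 further genes of glucose uptake and glycolysis tested, 2 were higher and 1 lower at an unadjusted p under 0.05, and the smallest p belonged to Slc2a12 at -0.31, Minpp1 at 0.089 and Adpgk at 0.10. Of 10 further TCA cycle genes 0 were higher and 2 lower at that p, the smallest belonging to Ogdhl at -0.17, Aco1 at -0.085 and Sdhaf2 at 0.086. The 5 genes of lactate transport all had log2 fold changes above 0, 1 of them at an unadjusted p under 0.05, among them Slc16a1, a lactate transporter, at 0.16, Emb at 0.18 and Bsg at 0.054. The 10 genes of NADH shuttles, 2 higher and 1 lower at that p, included Slc25a10 at 0.16, Slc25a13 at 0.093 and Slc25a11 at -0.090. Of 8 genes of the pentose phosphate pathway, 1 higher at that p, Rpe was at 0.15, G6pdx at 0.068 and H6pd at -0.048, and of 3 of gluconeogenesis, 0 at that p, Pck2 was at -0.066, Slc37a4 at -0.058 and G6pc3 at -0.0029.

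Among 20 regulators of these pathways, 2 were higher and 3 lower at an unadjusted p under 0.05, beside 9.4% and 8.5% of all genes. Txnip, an inhibitor of glucose uptake, had 391.9, 411 and 322 CPM in controls 1 to 3 and 634, 458, 469 and 630.3 CPM in cKO 1 to 4, a log2 fold change of 0.55 (SE 0.133, edgeR adjusted p = 0.0844, DESeq2 adjusted p = 0.0413). All cKO libraries were above the controls. Esrrb was at -0.27 and Ppargc1a, a coactivator for mitochondrial genes, at -0.18. Of the hypoxia-inducible factor targets by genotype, 3 were higher and 2 lower at an unadjusted p under 0.05, and Car12 was at 0.63, Higd1a at 0.16 and Ero1l at 0.15.

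Markers of other cells were measured beside these genes. The 12 macrophage markers summed to 140.8 to 144.5 CPM in controls and 157.3 to 171.8 CPM in cKO, with no overlap between the groups. Of the 12, 11 had log2 fold changes above 0, 10 were higher at an unadjusted p under 0.05 (9.4% of all genes), and 5 did not overlap with cKO above (8.67% of all genes). The other, Mrc1, was lower at such a p (8.5% of all genes), with a log2 fold change of -0.21. Mrc1 stood at 28.9, 28.1 and 26.2 CPM in controls 1 to 3 and 24.8, 23.4, 23.2 and 24.7 CPM in cKO 1 to 4. edgeR called 1 higher, C1qb (0.766% of all genes), and DESeq2 called C1qb and C1qc (2.6% of all genes), which encode chains of complement C1q. The 12 red cell markers summed to 1995 to 3763 CPM in controls and 2473 to 2710.1 CPM in cKO, and all 12 log2 fold changes were below 0 with 0 called. Endothelial markers summed to 1523 to 1628 CPM in controls and 1593 to 1666 CPM in cKO, fibroblast and epicardial markers to 4425 to 5278 CPM and 4068 to 5337 CPM, and smooth muscle markers to 1097 to 1298 CPM and 1314 to 1915 CPM. Most of the smooth muscle sum was Acta2, at 767 to 885 CPM in controls and 914 to 1384 CPM in cKO. Of the 6 smooth muscle markers 4 had log2 fold changes above 0 and 2 below. At an unadjusted p under 0.05, 2 were higher and 1 lower (9.4% and 8.5% of all genes). Atrial markers summed to 1608 to 1828 CPM in controls and 1723 to 1928 CPM in cKO. Of the other marker lists edgeR called 0. DESeq2 called the cardiomyocyte calcium channel gene Ryr2 lower (1.63% of all genes) and the endocardial marker Npr3 higher (2.6% of all genes). Both lists went both ways. Of the 10 cardiomyocyte markers 3 had log2 fold changes above 0 and 7 below, with 1 higher and 1 lower at an unadjusted p under 0.05. Of the 10 endothelial markers 7 were above 0 and 3 below, with 3 higher and 1 lower at that p (9.4% and 8.5% of all genes). No marker was at 0 counts in any library, and their part in the differences of the 39 genes was not tested.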

How the data were processed

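RNA came from whole ventricle, and libraries were made with a directional kit, per the labels' protocols. The authors deposited estimated counts per gene; 30.3% of values were not whole, and counts were rounded before testing. Per the submitters' processing notes, STAR 2.4.2a, HTSeq 0.6.1 and mm10 were used, their roles unstated. The step that gave fractions and the use of strand are not given in the sources used. In the table, 1 column was the row sum in all 15358 genes and was not used. Libraries of a group differed by 9.39 to 13.1 times sampling noise (chi-square per degree of freedom), so none was merged.

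Genes were filtered with filterByExpr (minimum count 10), scaled by TMM, and tested with edgeR 4.0.16 (R 4.3.3) quasi-likelihood F-tests, adjusted over 14887 genes at 0.05. DESeq2 1.42.0, the replicate block, code and left-out libraries were alternatives to this edgeR test. Ratios used log2 CPM (prior count 2) and two-sided exact permutation tests. The edgeR step was also run on simulated counts that gave all genes the same dispersion and held no difference by code. The outcome of that run is not used here. Exon lengths and shared 50-base stretches came from GENCODE annotation of GRCm38. Gene positions and overlaps came from the start, stop and strand deposited with the counts. The members and lists were chosen with earlier results of these data known. Values in every library are given for genes passing edgeR or DESeq2, the 12 with the smallest p and genes in isozyme pairs. From each other pathway list, called genes and the 3 smallest p are named; marker genes were named after their values were seen. The F191 comparison, the counts of log2 fold changes below 0 under the alternatives, and the Eno1 with Eno1b sum were added after the data were seen.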

Additional observations from a re-analysis of the deposited data

Results flagged for a closer look

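Of 47 groups of 4 cKO libraries (39 genes and 8 isozyme ratios), 3 held a library whose distance from the nearest other passed Dixon's 95% criterion; chance gives about 1 in 20 groups. Aldoc was 12.7 CPM in cKO 3, lowest of the 4 cKO libraries. Pgam2 was 199 CPM in cKO 1, lowest of the 4. Eno1 was 197 CPM in cKO 4, highest of the 4.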

How the results depend on the processing

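With 3 and 4 libraries, the count of calls moved with the setting. Of all genes, edgeR called 162; DESeq2 called 629, the fit with the code as a term 214, F169 libraries alone 20, and the fit without the 2 Xist-expressing libraries 17. Leaving out 1 library gave 28 to 133 calls. Of the 39 genes, edgeR called 0, DESeq2 called 1 higher and 4 lower, and leaving out 1 library gave 0 to 1 higher and 0 lower. For F191 against F169, edgeR called 19 of all genes and 0 of the 39, DESeq2 109 and 3, and leaving out 1 library gave 8 to 33 and 0 to 2. Counts below 0 stayed within 20 to 31 of the 39 and 16 to 22 of the 25 when 1 library was left out.

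Replicate numbers did not pair the samples, since same-numbered libraries deviated together with r of 0.0386, -0.0751 and -0.0791. With the replicate number as a block, 13 genes were called in all, the log2 fold change of Eno3 was 0.0044, and Pdk2 had an edgeR adjusted p of 0.0776.

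Small log2 fold changes changed sign. Without the Xist-expressing libraries Eno3 was at 0.079, Dlst at -0.0055, Mdh1 at -0.0031 and G6pc3 at 0.040, and the Aldoc/Aldoa ratio differed by 0.056. With the code as a term Hk2 was at 0.040, Pfkfb3 at 0.022 and Pgk1 at 0.0023. In F169 libraries alone Hk2 was at 0.036, Pfkfb3 at 0.014, Dlst at -0.0024 and Sucla2 at 0.0042. Leaving out 1 library gave a range across 0 for the log2 fold changes of Slc2a3 (-0.19 to 0.047), Hk1 (-0.094 to 0.029), Hk2 (-0.18 to 0.20), Pfkfb1 (-0.14 to 0.013), Pfkfb3 (-0.12 to 0.13), Tpi1 (-0.059 to 0.0020), Pgk1 (-0.020 to 0.024), Eno3 (-0.076 to 0.032), Idh3b (-0.030 to 0.017), Ogdh (-0.066 to 0.023), Sucla2 (-0.046 to 0.021), Fh1 (-0.043 to 0.0042), Mdh1 (-0.013 to 0.052), Mdh2 (-0.035 to 0.011), Slc37a4 (-0.15 to 0.055) and G6pc3 (-0.028 to 0.026), and for the log2 ratio differences of Hk1/Hk2 (-0.15 to 0.093) and Aldoc/Aldoa (-0.090 to 0.040). The cause was not tested. All of these genes and ratios missed the threshold in each setting, and fewer libraries also mean fewer degrees of freedom. Arrangements of 3 and 3 libraries cannot reach an adjusted p under 0.05 for the ratios.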
